A study of Homo sapiens with 4 samples.

Results

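The RUNX transcription factor family was described here through 6 genes: RUNX1, RUNX2 and RUNX3, their partner CBFB, and the corepressor genes RUNX1T1 and CBFA2T3. Its members were the 1000-bp tiles that the authors deposited as differentially methylated and that overlapped the GENCODE span of one of these genes, extended by 10 kb on each side, on hg19 (GRCh37). In all, 75 of the 72455 distinct tiles of the 3 deposited tables met this rule. DNA methylation had been measured by reduced representation bisulfite sequencing (RRBS) in 4 clones of SKOV3, an established human ovarian cancer cell line of mesenchymal-like phenotype. The SKOV3-M clones were shC-S, with a control shRNA, and LY75-R-S (labelled Ly75-OV-S), in which a cDNA of LY75 that resists the shRNA was expressed in sh-LY75-S cells. The SKOV3-E clones, of epithelial phenotype, were sh-LY75-S, with LY75 suppressed by shRNA, and LY75-KO-S, with LY75 inactivated by CRISPR/Cas9. LY75-R-S thus carries the same shRNA as sh-LY75-S, and each condition was 1 clone with 1 library. Differences between clones and effects of LY75 cannot be told apart. Set against each other were shC-S and sh-LY75-S (the knockdown comparison), LY75-R-S and LY75-KO-S (the knockout comparison), and both SKOV3-M with both SKOV3-E clones (the mix).

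RUNX proteins bind DNA through the Runt domain and activate or repress lineage genes in blood (RUNX1), bone (RUNX2) and the immune and nervous systems (RUNX3). CBFB, which does not contact DNA itself, stabilises this binding, while RUNX1T1 and CBFA2T3 (also named ETO or MTG8, and MTG16) are corepressors known as partners of RUNX1 in leukaemia fusions. Each RUNX gene is transcribed from a distal promoter, P1, and a proximal promoter, P2, which give proteins with different first residues, and methylation of the CpG-rich P2 of RUNX3 is a known form of silencing in epithelial cancers. RRBS cuts DNA with MspI at ccgg and reads short fragments after bisulfite treatment, so that it sees CpGs close to these sites.

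Stretches of the tiles on which the results turn are shown for their CpGs. The tables do not say which fragments were read. The tiles beside P2 of RUNX3 and RUNX1 have 35 and 34 CpGs in reach over 5 fragments each, and the CBFA2T3 tile 10 over 3 fragments. By contrast, the RUNX1 tile between the promoters and the RUNX2 tile have 1 fragment of 40 to 220 bp each, with 3 and 2 CpGs in reach. All stretches shown are hg19 reference sequence. Of each tile's MspI fragments of 40 to 220 bp, those that crossed its edge or overlapped an annotated untranslated region were left out. Of the rest, the one with the most CpGs was taken, on the + strand. Capitals mark the CpGs. The distance in each label is that of the tile's nearest edge, not of the stretch shown, whose own position is given by its coordinates.
RUNX1 79.6 kb downstream of P1, chr21:36341225-36341428: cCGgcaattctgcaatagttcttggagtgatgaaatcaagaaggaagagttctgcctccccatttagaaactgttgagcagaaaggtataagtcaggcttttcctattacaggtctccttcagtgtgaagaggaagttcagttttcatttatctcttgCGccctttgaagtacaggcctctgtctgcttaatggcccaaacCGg
RUNX1 987 bp downstream of P2, chr21:36259128-36259235: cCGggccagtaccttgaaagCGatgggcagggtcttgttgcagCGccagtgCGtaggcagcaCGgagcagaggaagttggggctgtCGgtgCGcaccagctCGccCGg
RUNX2 141.8 kb downstream of P2, chr6:45532664-45532718: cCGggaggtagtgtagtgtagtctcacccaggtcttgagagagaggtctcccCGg
RUNX3 767 bp downstream of P2, chr1:25255777-25255922: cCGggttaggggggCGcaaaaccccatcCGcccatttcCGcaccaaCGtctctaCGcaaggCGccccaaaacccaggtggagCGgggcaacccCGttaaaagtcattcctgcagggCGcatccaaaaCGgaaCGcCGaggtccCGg
CBFA2T3 3.6 kb downstream of the distal start, chr16:89039314-89039513: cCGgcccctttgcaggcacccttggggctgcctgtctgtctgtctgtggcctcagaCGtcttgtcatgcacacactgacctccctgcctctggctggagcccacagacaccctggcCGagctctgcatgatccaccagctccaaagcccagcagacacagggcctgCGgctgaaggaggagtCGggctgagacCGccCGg
The fragments held 3 CpGs in 200 bp between the promoters of RUNX1, 9 in 104 bp beside P2 of RUNX1, 2 in 51 bp in RUNX2, 14 in 142 bp beside P2 of RUNX3 and 7 in 196 bp in CBFA2T3. The stretches beside P2 of RUNX1 and RUNX3 were thus dense in CpGs, and those inside the introns of RUNX1 and RUNX2 were sparse.

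Each tile of the authors' deposited tables carries a p-value, a q-value and a methylation difference in percentage points. Only tiles that differ by at least 25 points with q below 0.01 are listed, without the level or the number of reads in either library. The depth behind a difference is therefore unknown, no replicate error exists, and the q-values compare libraries, not conditions. A tile that is not listed may have been covered without passing or may not have been covered. The order of subtraction is not stated in the tables, and positive differences were taken to mean higher methylation in the SKOV3-E clone. For the knockdown comparison this was chosen to match genes to which the study's text gives a direction in the SKOV3-E clones. Of 9 such genes, all 9 had a DMR within 2 kb of a start site whose sign, at the largest difference, fitted this reading. The mix fitted it in 6 of 6 genes with a DMR there, and the knockout comparison in 3 of 4. A least-squares fit over the 4250 tiles present in all tables gave the mix as 0.534 times the first and 0.435 times the second single comparison, which fixes only that the 3 tables share 1 order if the mix was grouped by phenotype. For the knockout comparison the order rests on that grouping, and read the other way round all its signs would turn. The authors' name for the knockout comparison puts LY75-KO-S first, whereas that for the knockdown comparison puts shC-S first. Expression was not measured in these libraries, so neither the phenotype of the clones nor their LY75 level was tested here. Within 2 kb of a start site of LY75, 2 tiles were listed in the knockdown comparison and in the mix, all positive, and 0 in the knockout comparison.

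The family had 58 DMRs (listed tiles) in the knockdown comparison, 19 in the knockout comparison and 29 in the mix. CBFA2T3 and RUNX1 held most of them, with 33 and 24 distinct tiles, followed by RUNX3 with 9, RUNX2 with 5, CBFB with 2 and RUNX1T1 with 2. Of the 304 tiles of the family in which an MspI fragment puts a CpG within reach of a read, 55 (18.1%) were listed in the first comparison, 17 (5.59%) in the second and 28 (9.21%) in the mix. Over the 384553 such tiles of the genome, the listed shares were 12.4%, 6.63% and 5.14%. The family's share was thus above the genome's in the knockdown comparison and the mix and below it in the knockout comparison. These differences in share were not tested, since neighbouring tiles are not independent.

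**Figure D1:**
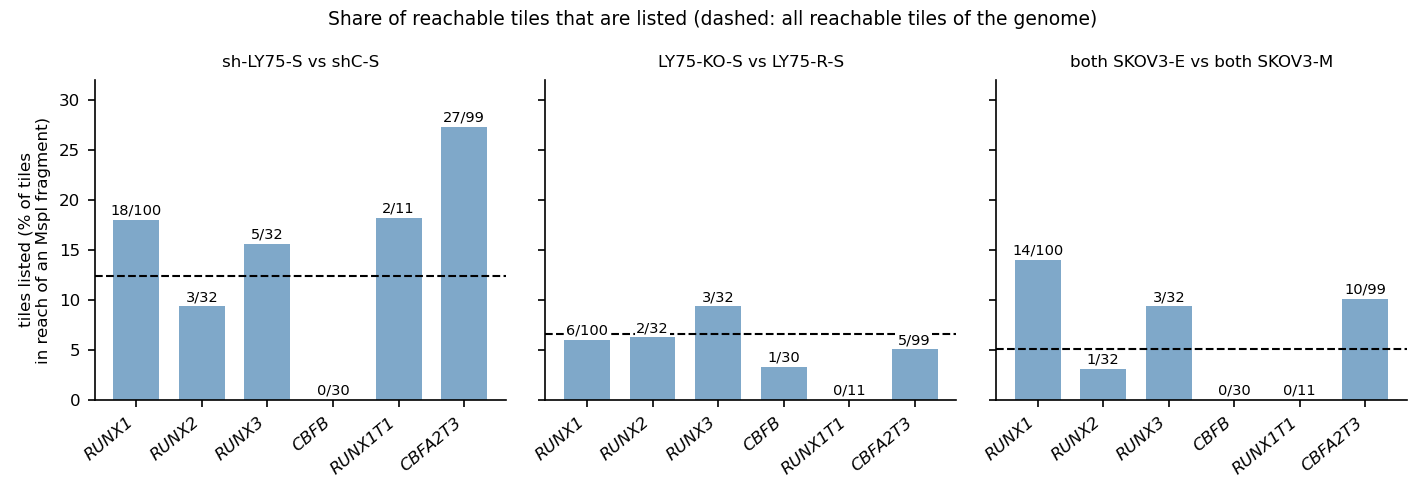
Share of reachable tiles that were listed, in percent, for each gene (bars, with listed over reachable tiles above them) and for the genome (dashed line), in the 3 comparisons. CBFA2T3 stood at 27.3% in the knockdown comparison against 12.4% for the genome, and CBFB at 0 of 30 tiles.

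By sign, 34 of the family's 58 DMRs (58.6%) were hypermethylated in sh-LY75-S, beside 64.7% of all listed tiles. In LY75-KO-S the count was 9 of 19 (47.4%, all tiles 54.7%), which with the order of subtraction reversed would be 10 of 19 (52.6%, all tiles 45.3%), from below to above the share of all tiles. In the mix it was 16 of 29 (55.2%, all tiles 65.0%). Differences of 50 points or more made up 35 of 58 DMRs (60.3%, all tiles 53.2%), 8 of 19 (42.1%, all tiles 37.5%) and 6 of 29 (20.7%, all tiles 21.6%). The median absolute difference of the family was 57.7, 39.4 and 34.1 points, beside 50.0, 41.9 and 36.9 points over all listed tiles. Over the whole family these shares lay near those of all tiles, while single genes lay on either side. CBFA2T3 was mostly hypermethylated (25 of 27 DMRs) and RUNX1 mostly hypomethylated (16 of 20) in the knockdown comparison, and in the knockout comparison both were mixed, with 2 of 5 and 4 of 7 hypermethylated. The smallest listed differences of the family were 26.5, 26.05 and 25.7 points, just inside the 25-point threshold, and the q-values of its DMRs ran from 9.10e-159 to 1.22e-04.

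**Figure D2:**
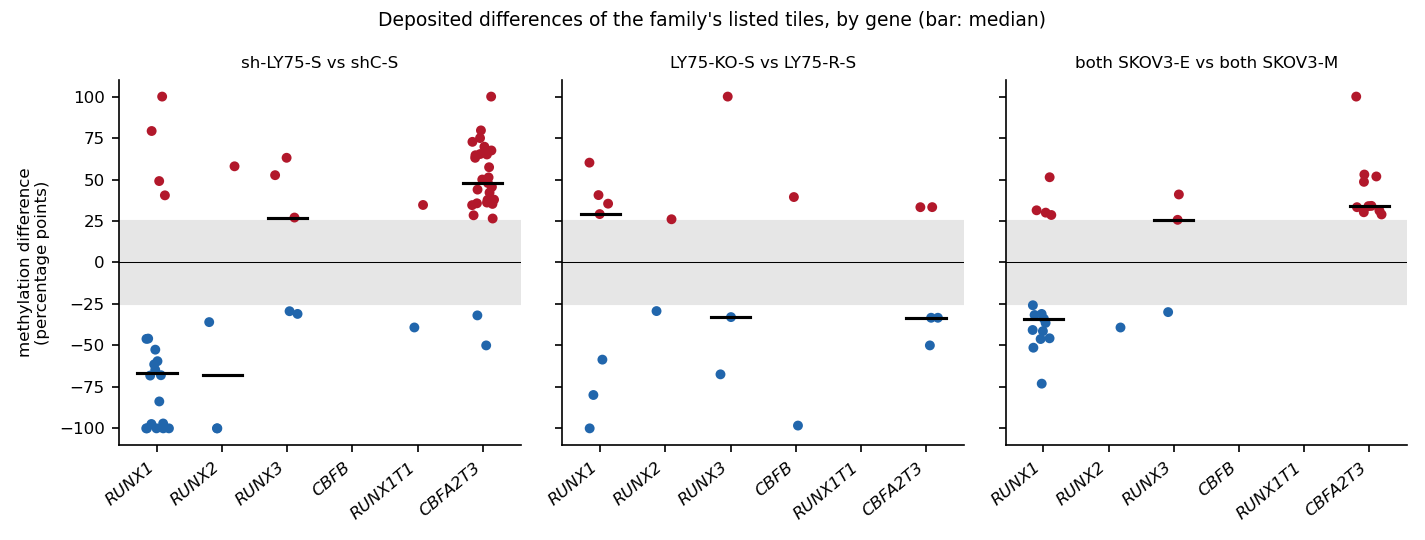
Deposited methylation difference of each of the family's DMRs, in percentage points, by gene and comparison, with points above 0 higher in SKOV3-E, a grey band for the 25-point threshold and a bar at the median where a gene has more than 2 DMRs. In the knockdown comparison the medians were 47.9 points for CBFA2T3 and -66.4 points for RUNX1.

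RUNX1, the regulator of definitive blood formation, lies on the - strand of chromosome 21, with P1 at position 36421641 and P2 at 36260987, 160.7 kb apart. It had 20 DMRs in the knockdown comparison, of which 16 were hypomethylated and 16 differed by 50 points or more, with a median of -66.4 points. The mix gave 15 DMRs, 11 of them hypomethylated, with a median of -33.9 points, and the knockout comparison gave 7, with 4 hypermethylated and 3 hypomethylated. GENCODE extends RUNX1 by 955.3 kb upstream of P1 through 5 transcripts outside its basic set, and most of the gene's DMRs were in that stretch: 17 tiles lay in an intron and 1 in an exon of these transcripts alone, and 1 lay beyond the gene over LINC01436. The 5 other tiles lay within the basic transcripts.

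In the upstream stretch of RUNX1, 14 of 16 DMRs (87.5%) were hypomethylated in sh-LY75-S, although 64.7% of all listed tiles and 67.6% of the 839 on chromosome 21 were hypermethylated. The 500 kb on either side of the gene had 6 of 12 and 11 of 15 hypermethylated DMRs. Closest to P1 were 2 tiles with -100 points, at 111.4 and 131.4 kb upstream, followed by -83.8 points at 155.4 kb, -64.7 at 157.4 kb and -59.5 at 227.4 kb. Farther out, the hypomethylated tiles lay at 449.4 kb (-61.4 points), 471.4 kb (-100), 548.4 kb (-97.1), 607.4 kb (-45.9), 653.4 kb (-100), 659.4 kb (-52.6), 705.4 kb (-46.1), 934.4 kb (-68.2) and 944.4 kb (-100). Both hypermethylated tiles, 49.1 points at 855.4 kb and 40.5 points at 925.4 kb, thus lay toward the far end. In the mix, which contains the same libraries, 9 of 11 upstream DMRs (81.8%) were hypomethylated. The knockout comparison listed 5 upstream tiles, 3 of them hypomethylated: -100 points at 136.4 kb, -58.6 at 227.4 kb and -79.9 at 449.4 kb, against 35.5 points at 233.4 kb and 60.2 points at 957.4 kb over LINC01436. The tiles with -100 points at 653.4 and 944.4 kb (knockdown) and at 136.4 kb (knockout) held no CpG in reach. Those with -100 points at 111.4, 131.4 and 471.4 kb (knockdown) held 1, 2 and 1 in reach. Over all of RUNX1, 6 of 20 DMRs in the knockdown comparison (30.0%) were 100 points in size, beside 13.1% of all listed tiles.

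Within the basic transcripts of RUNX1, DMRs were few and went both ways. Between the promoters, a tile 79.6 kb downstream of P1 differed by -97.4 points in the knockdown comparison but by 40.6 points in the knockout comparison, with -33.9 points in the mix. The next tile, 90.6 kb downstream of P1, differed by -68.0 points in sh-LY75-S and by -31.0 points in the mix. Beyond P2 the sign was positive throughout: a tile 24.0 kb downstream, which also overlaps the long noncoding gene ENSG00000286153, reached 100 points in sh-LY75-S, and one 80.0 kb downstream gave 79.2 points, 29.2 points and 51.4 points in the 3 comparisons. Next to P2 itself, a tile 987 bp downstream was listed in the mix alone with 30.0 points and a q-value of 1.13e-54. This tile, over a coding exon with 63 CpGs, also holds the start of another basic transcript. It was 1 of 4 of the family's 75 tiles (5.33%) listed in the mix and in neither single comparison. How often this held over all listed tiles was not counted.

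**Figure D3:**
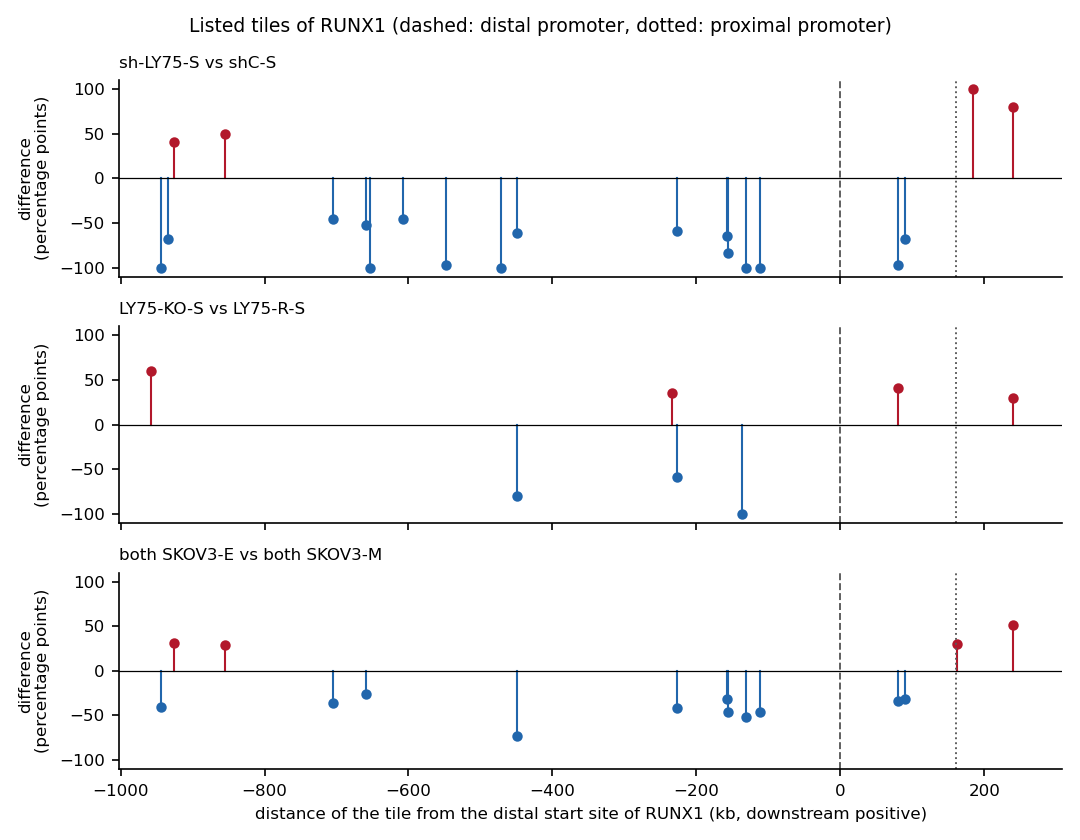
Differences of the RUNX1 DMRs, in percentage points, against the distance of the tile's nearest edge from the distal start site, in kb, in the 3 comparisons, with P1 dashed and P2 dotted. Upstream of P1, 14 of 16 DMRs in the knockdown comparison lay below 0, and no DMR lay between 111.4 kb upstream and 79.6 kb downstream of P1.

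RUNX2, the regulator of bone formation, lies on the + strand of chromosome 6, with P1 at 45296054 and P2 at 45390222. It had 4 DMRs in the knockdown comparison, 3 of them hypomethylated, 2 in the knockout comparison and 1 in the mix. Downstream of P2, -100 points were listed in sh-LY75-S at 31.8 kb and again at 141.8 kb. The tile at 31.8 kb held no CpG in reach of an MspI fragment. The tile at 141.8 kb, whose 2 CpGs in reach are shown above, went the other way in LY75-KO-S with 26.05 points and a q-value of 1.22e-04. In the mix it had -38.6 points. Upstream of P2 lay the remaining tiles of sh-LY75-S, with 58.0 points at 9.2 kb and -35.9 points at 49.2 kb, where the neighbouring gene SUPT3H overlaps. A coding exon 8.8 kb downstream of P2 had -29.3 points in LY75-KO-S. No DMR lay within 2 kb of either promoter.

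RUNX3, which acts in T cells and sensory neurons and is often studied as a tumour suppressor, lies on the - strand of chromosome 1, with P1 at 25291501 and P2 at 25256767. Beside P2, the signs were negative. A tile 767 bp downstream of P2, with 69 CpGs, had -29.4 points in sh-LY75-S with a q-value of 1.45e-55 and was not listed in the other comparisons. The tile that holds P2 itself, with 118 CpGs in reach, was not listed in any table. Another tile, 2.2 kb upstream of P2 and just outside the 2-kb window, had -67.4 points in LY75-KO-S, and -29.9 points were listed in the mix. Toward the end of the gene the signs in sh-LY75-S turned positive, with 63.1 points at 8.8 kb, 27.1 at 17.8 kb and 52.6 at 24.8 kb downstream of P2, the last also listed in the mix with 25.7 points. A coding exon at 27.8 kb had 41.0 points in the mix alone. Upstream of P2, 1 more tile at 17.2 kb had -31.0 points in sh-LY75-S. Past the gene's end, LY75-KO-S had 100 points at 30.8 kb and -32.9 points at 32.8 kb.

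CBFB, the shared partner subunit, had no DMR in the knockdown comparison or in the mix, although 30 of its tiles were in reach. LY75-KO-S had 2 intronic tiles of opposite sign, 39.4 points at 23.9 kb and -98.3 points at 51.9 kb downstream of its start at position 67063052 of chromosome 16. The tile at 51.9 kb held no CpG in reach. RUNX1T1 had 2 DMRs, both in the knockdown comparison, between its distal and proximal starts: a coding exon 40.5 kb downstream of the distal start, 191 bp from the start of another basic transcript, with 34.7 points and an intron at 61.5 kb with -39.2 points. With 11 tiles in reach, RUNX1T1 was the least visible member. For both genes, the CpG-dense tile at the distal or single start was in reach, with 105 CpGs for CBFB and 70 for RUNX1T1, and was not listed in any table.

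**Figure D4:**
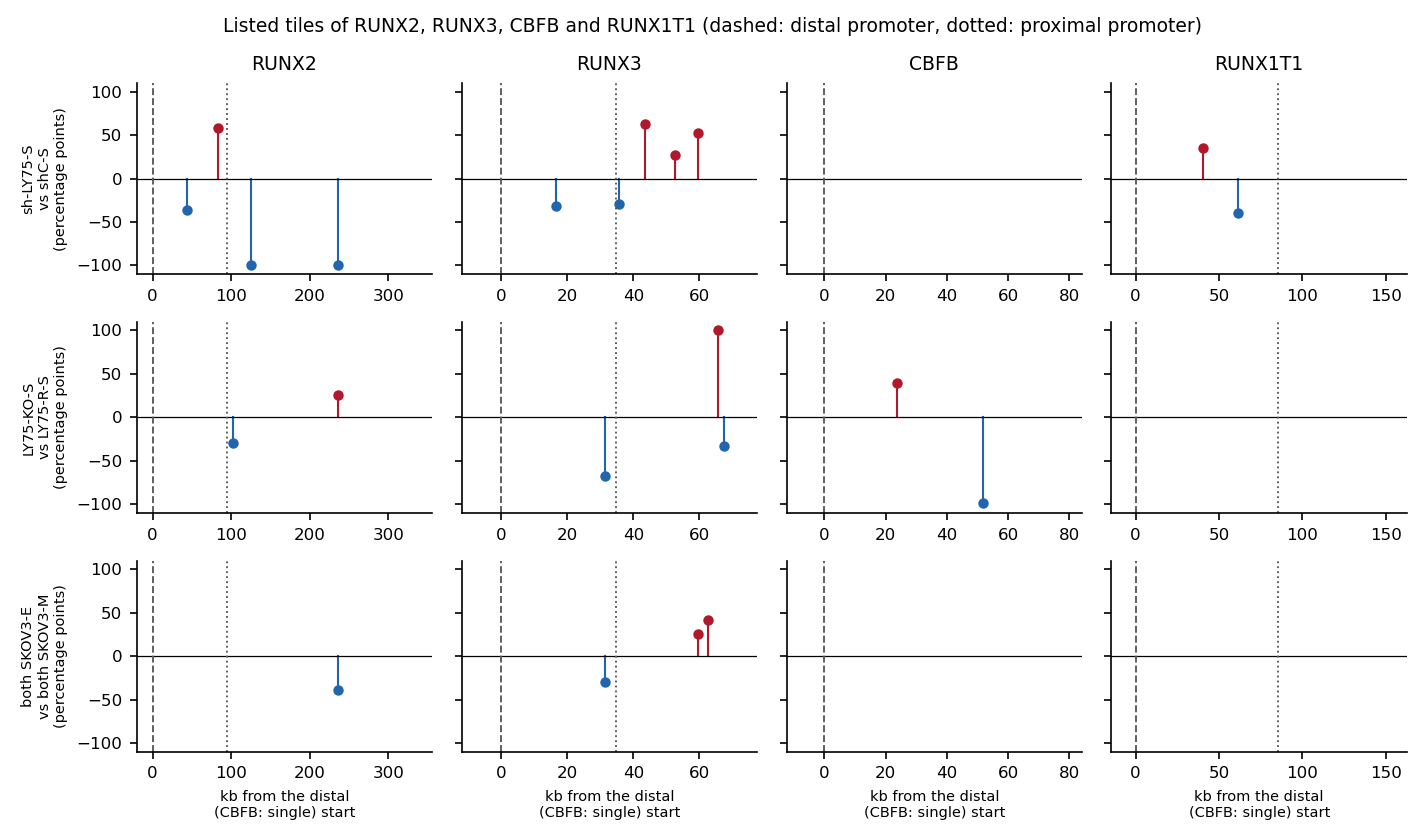
Differences of the DMRs of RUNX2, RUNX3, CBFB and RUNX1T1, in percentage points, against the distance of the tile's nearest edge from the distal start (for CBFB, its single start), in kb, with the distal promoter dashed and the proximal dotted. In the knockdown comparison, RUNX3 had -29.4 points beside P2 and 3 positive DMRs beyond it, and empty panels mark comparisons with no DMR.

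CBFA2T3, a corepressor that recruits histone deacetylases, was the member with the most DMRs. It lies on the - strand of chromosome 16, with its distal start at 89043615 and the proximal one at 89007606, 36.0 kb apart. In the knockdown comparison, 27 of its 99 tiles in reach (27.3%) were listed, and 25 of the 27 (92.6%) were hypermethylated in sh-LY75-S, with a median of 47.9 points. Beside this, 64.7% of all listed tiles and 69.0% of the 2420 on chromosome 16 were hypermethylated. The neighbouring 500 kb had 43 of 60 hypermethylated DMRs (71.7%) on the downstream side and 36 of 47 (76.6%) on the upstream side, and listed shares of 15.6% and 17.8% of the tiles in reach. In the mix, which contains the same libraries, all 10 DMRs were hypermethylated, beside 65.0% of all its listed tiles. The knockout comparison had 5 DMRs, 2 hypermethylated and 3 hypomethylated.

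Around the distal start of CBFA2T3, hypermethylation in sh-LY75-S extended upstream of the gene. Tiles at 8.4, 6.4, 5.4 and 4.4 kb upstream had 34.6, 36.1, 37.9 and 63.1 points. The tile that holds the start had 57.4 points, and the tile 386 bp upstream had 43.9 points and stood at 100 points in the mix. A tile 1386 bp upstream went against them with -50 points. Just inside the gene, at 3.6, 4.6, 7.6 and 9.6 kb, sh-LY75-S had 51.3, 64.6, 67.5 and 65.1 points. The tile at 3.6 kb was the only one of CBFA2T3 listed in every table, with 33.4 points in the knockout clone and 28.95 points in the mix, and the tile at 7.6 kb had 48.6 points in the mix. Between the starts, 37.7, 100, 79.6 and 42.1 points were listed at 19.6, 20.6, 22.6 and 25.6 kb in sh-LY75-S, and 53.0 points at 24.6 kb in the mix alone.

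Between the tiles 9.4 kb upstream and 13.6 kb downstream of the proximal start of CBFA2T3 no tile was listed in any comparison, although all 5 tiles of its 2-kb window were in reach and the start tile held 146 CpGs. Past this gap, hypermethylation in sh-LY75-S returned. At 13.6, 15.6, 19.6, 21.6 and 22.6 kb downstream of the proximal start the differences were 26.5, 72.7, 45.5, 75.0 and 50.0 points, the last with 31.25 points in the mix. Toward the end of the gene, at 48.6, 53.6, 62.6 and 63.6 kb, they were 28.4, 47.9, 35.3 and 35.7 points, and at 54.6 kb, over a coding exon, -31.9 points. Beyond the end, 69.8 points at 66.6 kb and 65.4 points at 70.6 kb were accompanied by 51.85 and 33.3 points in the mix. The mix also listed 30.3 points 4.4 kb upstream of the distal start, 34.1 points 56.6 kb and 34.0 points 63.6 kb downstream of the proximal start. In LY75-KO-S, 33.3 points at 23.6 kb stood beside -50.0 points at 41.6 kb and -33.3 points at 60.6 kb downstream of the proximal start, and -33.3 points at 6.6 kb downstream of the distal start. Directly adjacent DMRs were found in CBFA2T3 alone among the members, as 5 pairs and 2 runs of 3 tiles in the knockdown comparison. Signs were mixed in the pair with -31.9 and 47.9 points and in the run with 57.4, 43.9 and -50 points. Tiles in reach also lay closer together than in RUNX1: 99 for the 102.3 kb of CBFA2T3 and 100 for the 1216.9 kb of RUNX1, each with its flanks. How often all listed tiles were adjacent was not counted. Part of the gene overlaps the long noncoding genes ENSG00000205018 and ENSG00000259881, and ENSG00000259989 lies upstream of it, over 2 of the flanking tiles.

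**Figure D5:**
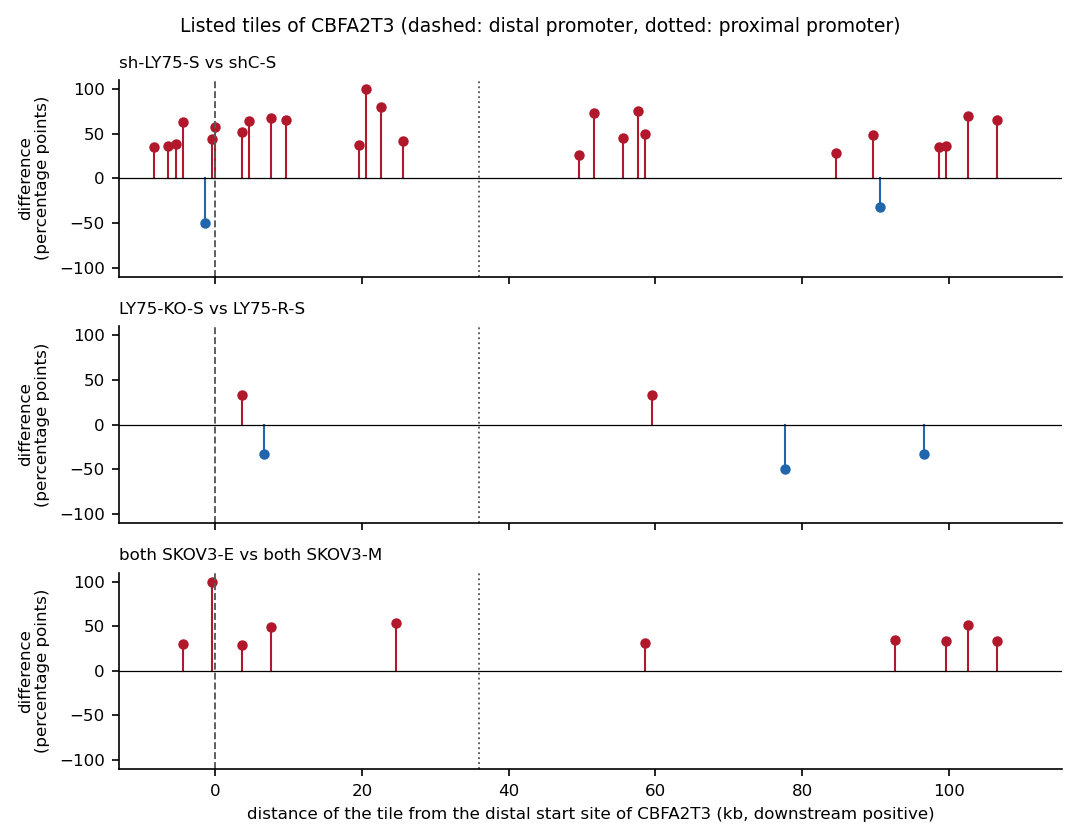
Differences of the CBFA2T3 DMRs, in percentage points, against the distance of the tile's nearest edge from the distal start site, in kb, in the 3 comparisons, with the distal start dashed and the proximal start dotted. In the knockdown comparison, 25 of 27 DMRs lay above 0, and a gap surrounds the proximal start.

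Over the 11 promoters of the family, 3 had a DMR within 2 kb in any comparison: P2 of RUNX1, P2 of RUNX3 and the distal promoter of CBFA2T3. In the knockdown comparison these were P2 of RUNX3 and the distal promoter of CBFA2T3, in the mix P2 of RUNX1 and the distal promoter of CBFA2T3, and in the knockout comparison there was none (0 of 11). Counted at all starts of basic transcripts, as for every gene, 2 of the 6 members (RUNX1T1 and CBFA2T3) had a hypermethylated tile within 2 kb in sh-LY75-S, beside 17.9% of the 20136 protein-coding genes. A hypomethylated one was found in 2 (RUNX3 and, with its tile of -50 points, CBFA2T3), beside 15.3%. The knockout comparison had 0 of 6 in either direction, beside 7.99% and 7.2%. In the mix, 2 (RUNX1 and CBFA2T3) had a hypermethylated and 0 a hypomethylated tile, beside 8.74% and 7.16%. Whether the other promoters were unchanged cannot be said: of the 55 tiles in the promoter windows 31 were in reach, and the start tiles of P1 of RUNX1, P1 of RUNX2 and the proximal promoter of RUNX1T1 held no CpG in reach. The nearest DMR of sh-LY75-S lay 79.6 kb from P1 of RUNX1, 43.9 kb from P1 of RUNX2, 9.2 kb from P2 of RUNX2 and 16.5 kb from P1 of RUNX3.

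Of the 72455 distinct tiles of the series, 4250 were listed in all 3 tables, and those in 1 or 2 were not counted. Of the family's 75 tiles, 50 (66.7%) were listed in 1 table, 19 (25.3%) in 2 and 6 (8.0%) in all 3. The tiles listed in both single comparisons, which share no library although LY75-R-S was derived from sh-LY75-S cells, were these 6, or 10.3% of the family's DMRs in the knockdown comparison and 31.6% of those in the knockout comparison. Over all listed tiles the 8345 shared ones made up 16.3% and 29.5%. In 4 of the 6 the direction was the same in both SKOV3-E clones, beside 52.6% of the 8345. Both hypomethylated ones lay upstream of P1 of RUNX1, with -59.5 and -58.6 points at 227.4 kb and -61.4 and -79.9 points at 449.4 kb. Hypermethylated in both clones were the tile 80.0 kb downstream of P2 of RUNX1, with 79.2 and 29.2 points, and the tile 3.6 kb inside CBFA2T3, with 51.3 and 33.4 points. Opposite signs were found at 79.6 kb downstream of P1 of RUNX1 and at 141.8 kb downstream of P2 of RUNX2. Since the mix holds the libraries of both single comparisons, its values are given beside theirs and not as further evidence.

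The tiles of the family were mostly intronic and not CpG islands. Annotation put 38 of the 75 in introns, 8 in coding exons and 11 outside the genes, the others being those of the RUNX1 upstream stretch. They held a median of 25 CpGs, ranging from 6 to 69. Tiles of CBFA2T3 were richer, with a median of 36 CpGs and 62.5% GC, than those of RUNX1, with 11 CpGs and 45.8% GC. Only 2 of the 75, those beside P2 of RUNX1 and P2 of RUNX3, had more than 50% GC together with an observed-to-expected CpG ratio above 0.6. Such tiles were 1.72% of the family's DMRs in the knockdown comparison, 0 of 19 in the knockout comparison and 3.45% in the mix, beside 8.88%, 2.83% and 9.17% of all listed tiles. The letters TGTGGT, the core of the sequence that RUNX proteins bind, occurred on either strand in 30 of 58 DMRs (51.7%, all listed tiles 49.1%), 12 of 19 (63.2%, all 51.6%) and 18 of 29 (62.1%, all 49.0%). These matches describe the tile's letters and show no binding.

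Genes of 2 lists completed the pathway: 23 cofactors of RUNX proteins and 20 of their known target genes, each read by DMRs within 2 kb of a start site. In the knockdown comparison, 9 of the 23 cofactors had such a DMR, 4 (17.4%) with a hypermethylated and 7 (30.4%) with a hypomethylated tile, beside 17.9% and 15.3% of all protein-coding genes. In the knockout comparison these were 2 (8.7%) and 3 (13.0%), beside 7.99% and 7.2%, and in the mix 1 (4.35%) and 2 (8.7%), beside 8.74% and 7.16%. Cofactors with a DMR in both single comparisons included TLE2 and SMAD3. TLE2, a Groucho-type corepressor, had 100 points in sh-LY75-S and 29.35 points in LY75-KO-S, in different tiles. SMAD3, the TGF-beta effector that works with RUNX proteins, had 50.0 and 95.2 points in the same tile of both clones, 947 bp downstream of one of its starts, and at its upstream start -49.5 points in sh-LY75-S and -100 points in LY75-KO-S in neighbouring tiles. The largest cofactor difference in sh-LY75-S was 100 points in size, reached by TLE2 and, with a negative sign, by TLE1 and PRMT6, the latter an arginine methyltransferase. In LY75-KO-S it was -100 points, at SMAD3, and in the mix -36.6 points, at TLE1. TLE1 went both ways in sh-LY75-S, with 36.8 points 462 bp from a start and the -100 points at 1539 bp.

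Among the 20 targets, the knockdown comparison gave 5 genes (25%) with a hypermethylated and 2 (10.0%) with a hypomethylated promoter tile, the knockout comparison 1 (5.0%) and 2 (10.0%), and the mix 3 (15.0%) and 1 (5.0%). Beside these, the shares of all protein-coding genes were 17.9% and 15.3%, 7.99% and 7.2%, and 8.74% and 7.16%. ELANE, which encodes neutrophil elastase, was the target listed in both single comparisons, with 29.3 points in sh-LY75-S and 25.3 points in LY75-KO-S in the tile at its start. MPO, the myeloperoxidase gene, had the largest target difference in sh-LY75-S with 97.1 points. In the mix the largest was that of ELANE with 46.2 points, in another tile, 698 bp downstream of a start. The ELANE tile of the single comparisons was not listed in the mix. Most genes of both lists had no listed promoter tile: 14 of 23 cofactors and 13 of 20 targets in the knockdown comparison. These shares were not adjusted for the number of start sites or CpGs per gene.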

How the data were processed

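Per the submitters' processing notes, reads were trimmed with Trim Galore 0.4.1, checked with FastQC, aligned to hg19 with Bismark 0.16.1 and compared with methylKit (version not given in the sources used here) in tiles of 1000 bp, and the extract protocol names Trimmomatic for trimming. The authors deposited, for each of 3 comparisons, a score per tile, the methylation difference between libraries in percentage points, with its p-value and q-value. These columns are the authors' own comparisons. They were used here because the tables hold nothing else, and as read from the values they list only differences of at least 25 points with q below 0.01. No read number was given, so depth and precision are unknown and no coverage minimum could be varied. Reads of one molecule can be counted repeatedly, and p-values then overstate the evidence. With no values per library and 1 library per clone, no test was made.

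Tiles were matched to gene spans of GENCODE release 44 on GRCh37 with Python 3.11.15, numpy 2.4.6, pandas 2.3.3, pysam 0.24.0 and Biopython 1.88, and drawn with matplotlib 3.10.9. Distances run from a start site to the nearest edge of a tile. P1 and P2 were the most upstream starts of basic transcripts whose proteins begin with the residues of each isoform class. For the other genes they were the outermost starts of basic transcripts with a CCDS tag. A tile was in reach when an MspI fragment of 40 to 220 bp put a CpG within 50 bp of a fragment end, which held for 93.0%, 90.1% and 94.1% of the listed tiles. Among the family's 75 tiles, 70 were in reach. Distances, reach and motif search were tested on simulated data. Named were all members, their tiles near promoters or in more than 1 table, the largest difference per gene and table, and, of the cofactor and target lists, the genes listed in both single comparisons and the largest difference per table. Further tiles of the members were named to account for all of them. Members, lists and rules were chosen with earlier results of these data known. Promoter sequences on another build were not used. Some named genes and sequences that these rules select are not reported here.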

Additional observations from a re-analysis of the deposited data

Results flagged for a closer look

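In 2 tiles of the family the single comparisons, which share no library, went in opposite directions. In the intron of RUNX1 79.6 kb downstream of P1, the authors' deposited difference was -97.37 points in the knockdown comparison and 40.62 points in the knockout comparison. In the intron of RUNX2 141.8 kb downstream of P2 (235.9 kb from P1) it was -100 points and 26.05 points. With 1 library per clone, the difference between the comparisons was not tested. The fragment with the most CpGs held 3 CpGs in the RUNX1 tile and 2 in the RUNX2 tile. Read with the other order of subtraction, both tiles would agree in direction and the 4 tiles of like direction would be opposite.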

How the results depend on the processing

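Of 42 alternative counts, 27 stayed within 1.5 times the reported count and 15 did not; 6 of the 42 were chosen after seeing the data. With differences of 50 points or more, the family had 35, 8 and 6 DMRs in the knockdown comparison, the knockout comparison and the mix, of which 18, 2 and 4 were positive, and 2, 0 and 1 lay within 2 kb of a promoter. By this threshold CBFA2T3 kept 13 positive of 14 DMRs in sh-LY75-S, and the RUNX1 upstream stretch 12 negative of 12. A window of 5 kb in place of 2 kb gave 7, 2 and 5 promoter tiles. A flank of 50 kb gave 29 DMRs in the knockout comparison. Of the tiles in both single comparisons, 2 had the same direction with the order of subtraction reversed, and 2 of 2 with 50 points or more in both. Gene spans without flanks and q below 1e-10 stayed within 1.5 times for every count they were tried on. No paired analysis was possible because the deposited tables hold no values per library and the clones share no replicate number. The tables list no read number, so the tiles that a higher coverage minimum would remove are unknown.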

Other observations

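In 2 of the 6 tiles listed in all tables, the mix lay outside the range of the single comparisons: -41.4 points beside -59.5 and -58.6 points in the RUNX1 tile 227.4 kb upstream of P1, and 28.95 points beside 51.3 and 33.4 points in CBFA2T3 3.6 kb inside the gene. Over all 4250 such tiles this held for 912 (21.5%). The tile 386 bp upstream of the distal start of CBFA2T3 had 43.9 points in the knockdown comparison and 100 points in the mix. It was 1 of 3 tiles, of the 12801 listed in these tables and not in the third, with 100 points in the mix and less in the single comparison. The mix was larger in size in 767 (5.99%) of them. No explanation of these values was tested.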
